A study of Mus musculus with 4 samples.

Results

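The Hox genes of the 4 mouse clusters, HoxA to HoxD, were followed in nuclei from the thymus and from epigonadal white fat. Members were all gene symbols in the count tables made of Hoxa, Hoxb, Hoxc or Hoxd and a number, without opposite-strand genes. This rule found 39 of 32285 genes, and 38 are described: 10 of HoxA, 10 of HoxB, 9 of HoxC and 9 of HoxD. Hox genes encode homeodomain transcription factors that lie side by side in clusters, numbered by paralog group. In the embryo, low-numbered genes are switched on further forward and high-numbered genes further back along the body axis, and adult stromal and fat cells keep part of this code as a record of where they came from. Pbx, Meis and Pknox proteins bind DNA together with Hox proteins, Polycomb complexes keep silent Hox genes closed, and Trithorax complexes keep active ones open.

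Single-nucleus RNA was measured in 1 thymic library, from thymi of 6 WT naive 4-month male C57/BL6 mice pooled, and in 1 library of epigonadal white adipose tissue (gWAT) from WT naive mice, named as 4-month male. The sources used here give neither the strain nor the number of animals of the epigonadal library. Chromatin accessibility came from a multiome library of thymi of 16 WT naive 6-month female C57/BL6 mice pooled. The thymi were cleaned of attached fat and digested, and nuclei were taken from the floating layer after spinning. The thymic libraries are therefore enriched for, but not limited to, buoyant cells. The mice giving thymi ate standard chow, and no group was treated.

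There were 22600 barcodes with 10054839 UMIs (unique molecules counted) in the thymic library and 5043 barcodes with 6504841 UMIs in the epigonadal one. The authors gave 365 thymic and 1564 epigonadal nuclei a label, Ad I (a and b) or Ad II (a, b and c). Ad Ia and Ad Ib are summed as Ad I. The labelled nuclei held 534972 and 2157889 nuclear-encoded UMIs, and 147 barcodes occurred in both libraries, of which 0 were labelled in both. Levels are counts per 1000000 nuclear-encoded UMIs (CPM) of a library and label. There was 1 library per group, so no difference has a replicate check, no test was made, and every 95% interval covers counting error only. In pooled material, fewer cells of a type and less RNA per cell cannot be told apart.

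The labels name adipocytes, and the markers went only partly with them. The 7 adipocyte markers together stood at 4326 CPM in thymic and 7580 CPM in epigonadal Ad I. In Ad IIa they stood at 404 and 5587 CPM, while the 8 endothelial markers stood at 8731 and 6484 CPM. In Ad IIc the adipocyte markers were at 774 CPM in the thymic and 27549 CPM in the epigonadal library, and the endothelial markers at 7814 and 409 CPM. Ad IIa nuclei thus carried endothelial marker RNA in both libraries, and in Ad IIc the libraries differed in both marker sets. The 8 fibroblast and progenitor markers together were lower in thymic labelled nuclei as well, at 20.6 against 300 CPM, with 4 of the 8 at 0 UMIs there and 7 of 8 lower by a log2 ratio of at least 1. They stood at 153 and 595 CPM in Ad I, at 4.98 and 191 CPM in Ad IIa, and at 0 UMIs and 461 CPM in Ad IIc. T cell markers stood at 163 CPM in thymic and 9.73 CPM in epigonadal labelled nuclei. What these differences contribute to Hox RNA was not tested, and values are therefore given by label as well as in sum.

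Promoters of 3 members are shown for their differing chromatin in thymic nuclei. They are the 250 bases before the RefSeq start, on GRCm38.p6, read 5′ to 3′, with each CG dinucleotide in capitals. Hoxa5 (chr6:52204588-52204837, minus strand) held the most fragments of the 3 in thymic nuclei, Hoxd3 (chr2:74711743-74711992, plus strand) differed between the nucleus classes there, and Hoxd13 (chr2:74667975-74668224, plus strand) had 0 RNA counts and 0 fragments in these 250 bases.
Hoxa5: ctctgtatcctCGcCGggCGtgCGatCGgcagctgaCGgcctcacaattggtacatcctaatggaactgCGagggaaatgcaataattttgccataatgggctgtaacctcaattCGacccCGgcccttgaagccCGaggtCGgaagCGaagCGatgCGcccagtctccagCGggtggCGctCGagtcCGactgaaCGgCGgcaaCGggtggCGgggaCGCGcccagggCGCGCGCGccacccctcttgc
Hoxd3: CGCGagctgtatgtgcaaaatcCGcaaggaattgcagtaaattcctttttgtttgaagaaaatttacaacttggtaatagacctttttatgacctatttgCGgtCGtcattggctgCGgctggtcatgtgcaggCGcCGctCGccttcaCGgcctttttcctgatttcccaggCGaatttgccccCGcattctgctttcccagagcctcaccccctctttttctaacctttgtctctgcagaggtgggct
Hoxd13: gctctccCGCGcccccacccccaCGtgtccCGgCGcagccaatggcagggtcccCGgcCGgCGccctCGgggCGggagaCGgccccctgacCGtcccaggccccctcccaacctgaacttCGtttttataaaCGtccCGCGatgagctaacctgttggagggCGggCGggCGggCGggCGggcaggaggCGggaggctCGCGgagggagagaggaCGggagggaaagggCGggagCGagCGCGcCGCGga
The Hoxa5 promoter holds 28 CG, the Hoxd3 promoter 12 and the Hoxd13 promoter 31. At least as many CG occur in 7.26%, 33.8% and 4.93% of the 27025 promoters of that length in the table. RefSeq promoters were matched for 22 members, with 2 (Hoxd11) to 35 CG (Hoxa13) and a median of 12 against 6 over all promoters, so none of the 3 is among the members poorest in CG. All 22 held a CG, as did 91.7% of all promoters. The Hox-Pbx motif TGATNNAT, searched on both strands, occurred in 3 of 22 (13.6%) and in 7.91% of all promoters.

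Labelled thymic nuclei held Hox RNA at a lower level than labelled epigonadal nuclei, and the difference was largest for HoxC and for the higher-numbered paralogs. The 38 genes gave 127 thymic UMIs (237 CPM) and 1120 epigonadal UMIs (519 CPM), a log2 ratio, thymic over epigonadal, of -1.12 (-1.40 to -0.86). HoxC gave 2 thymic UMIs (3.74 CPM) and 297 epigonadal UMIs (138 CPM) and a log2 ratio of -4.88 (-8.25 to -3.34). At the epigonadal level the thymic nuclei would have held 73.6 HoxC UMIs. Other genes differed as much in these nuclei: the 7 adipocyte markers stood at 817 and 10891 CPM, all 7 lower with a median log2 ratio of -4.02, and the fibroblast and progenitor markers had a median of -2.94. Their part in the HoxC difference was not tested. HoxC is the cluster with no member below paralog number 4, and several of its genes pattern the trunk and hindlimb.

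Summed over labelled nuclei, the other clusters differed far less. HoxA had 33 thymic UMIs (61.7 CPM) and 216 epigonadal UMIs (100.1 CPM) and a log2 ratio of -0.68 (-1.27 to -0.17). HoxB had 60 UMIs (112 CPM) and 416 UMIs (193 CPM) and a log2 ratio of -0.77 (-1.20 to -0.39). HoxD had 32 UMIs (59.8 CPM) and 191 UMIs (88.5 CPM) and a log2 ratio of -0.55 (-1.15 to -0.02), which was -1.38 with equal weight per label. The intervals of these 3 clusters overlapped one another and did not overlap that of HoxC. As a share of all Hox UMIs, HoxC made up 1.57% (0.19 to 5.57, Clopper-Pearson) in thymic and 26.5% in epigonadal labelled nuclei, while HoxB made up 47.2% and 37.1%.

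**Figure D1:**
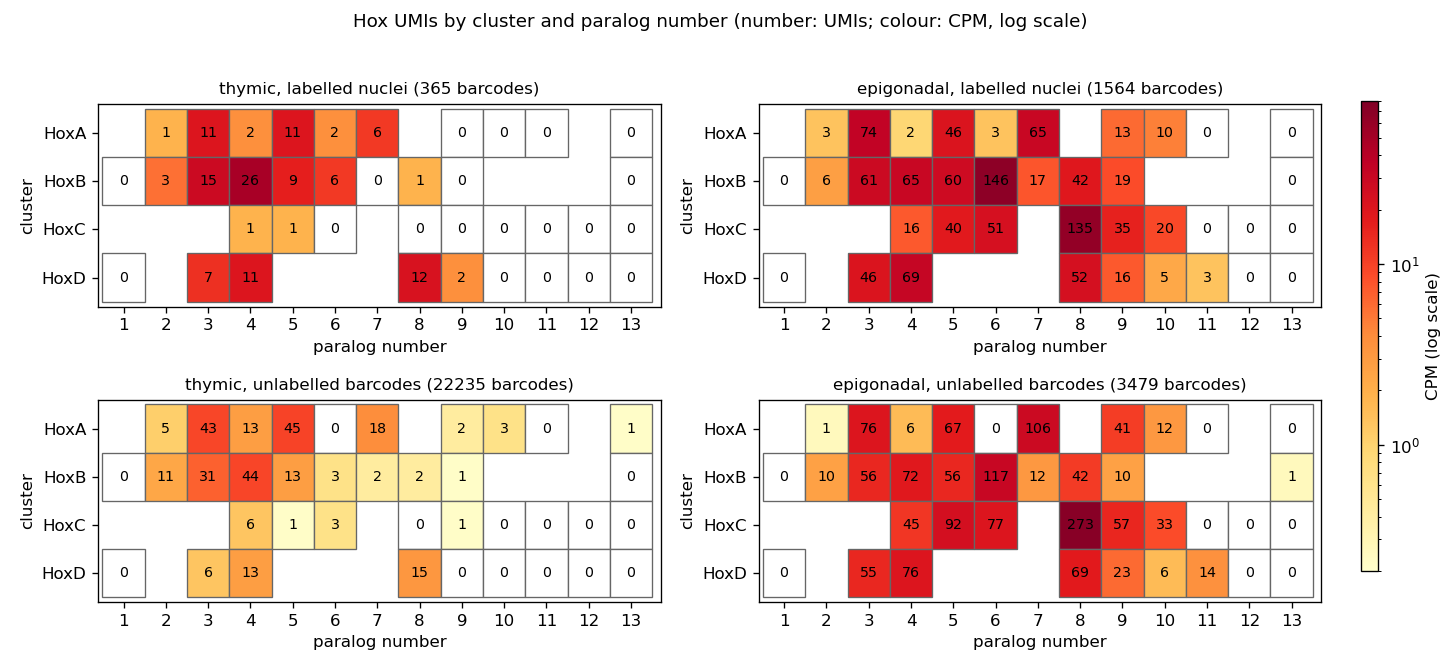
UMIs of each Hox gene (number in the cell) by cluster (rows) and paralog number (columns), with colour for CPM on a log scale, in labelled nuclei (top) and unlabelled barcodes (bottom) of the thymic (left) and epigonadal (right) library. White framed cells are 0 UMIs, and positions without a frame have no reported gene. The thymic HoxC row holds 2 UMIs in labelled nuclei, against 297 in the epigonadal library.

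Ordered by paralog number, the ratio fell from front to back. Paralogs 1 to 4 had 77 thymic UMIs (144 CPM) and 342 epigonadal UMIs (158 CPM) and a log2 ratio of -0.13 (-0.52 to 0.22). Paralogs 5 to 8 had 48 UMIs (89.7 CPM) and 657 UMIs (304 CPM) and a log2 ratio of -1.75 (-2.22 to -1.34). Paralogs 9 to 13 had 2 UMIs (3.74 CPM) and 121 UMIs (56.1 CPM) and a log2 ratio of -3.59 (-6.97 to -2.02). The interval of paralogs 1 to 4 lay above those of the other groups, and those of 5 to 8 and 9 to 13 overlapped.

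Inside HoxB, which does not rest on the near absence of HoxC, paralogs 5 to 8 were lower relative to paralogs 1 to 4. HoxB paralogs 1 to 4 had 44 thymic and 132 epigonadal UMIs and a log2 ratio of 0.44 (-0.10 to 0.93). HoxB paralogs 5 to 8 had 16 and 265 UMIs and a log2 ratio of -1.996 (-2.87 to -1.31), and Hoxb9 and Hoxb13 together 0 and 19. The last pair was at least 1.57-fold lower in the thymic library, a bound too wide to place it below or above paralogs 5 to 8. In HoxA the groups of paralogs 1 to 4 and 5 to 8 were near each other, at -0.44 (-1.42 to 0.35) and -0.54 (-1.36 to 0.14), while paralogs 9 to 13 had 0 and 23 UMIs. In HoxD the corresponding ratios were -0.63 (-1.47 to 0.06) and -0.06 (-1.14 to 0.82), and paralogs 9 to 13 had 2 and 24 UMIs. The intervals of paralogs 1 to 4 and 5 to 8 did not overlap in HoxB, and overlapped in HoxA and in HoxD. With the 0 set at 3 UMIs, HoxA paralogs 9 to 13 were 1.90-fold lower in the thymic library. For those of HoxD the ratio of -1.28 (-4.70 to 0.44) was within counting error.

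Of the 38 genes, 10 had 0 UMIs in labelled nuclei of both libraries, 6 had 1 to 9 in all, and 22 had at least 10. Among these 22, 13 were lower in the thymic library by a log2 ratio of at least 1, where 20.2% of the 11306 genes with at least 10 UMIs were, and 0 were higher by that much, where 8.12% of genes were. For 10 of the 22 the interval lay below 0 and for 0 it lay above, but the share of all genes with such intervals was not computed. The median log2 ratio of the 22 was -1.91, against 0.02 over all genes. In 8 of the 22 the thymic count was 0, and with these genes set at a limit of 3 UMIs 8 were lower by that much and the median was -0.67. All genes were not recomputed at this or the next setting, so the 20.2% is no matching share for these counts. With 5 UMIs in place of 0.5 added to each sum, the count of 13 fell to 3. Because the thymic library holds fewer UMIs, equal added counts move ratios of low counts upwards past 0, to 0.43 for both Hoxa10 and Hoxd9. The fall thus does not separate few counts from this upward shift. The count of 13 depends on how genes with few thymic UMIs are treated.

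For the front genes Hoxb4, Hoxb3 and Hoxa3 no difference beyond counting error was seen in labelled nuclei, while in the sum of unlabelled barcodes all 3 were lower in the thymic library. Hoxb4, a regulator of blood stem cells, had 26 thymic UMIs (48.6 CPM) and 65 epigonadal UMIs (30.1 CPM) and a log2 ratio of 0.71 (-0.03 to 1.37). Hoxb3, which acts in hindbrain and pharyngeal patterning, had 15 and 61 UMIs (28.0 and 28.3 CPM) and a log2 ratio of 0.02 (-0.93 to 0.82). Hoxa3, which the embryo needs to form a thymus, had 11 and 74 UMIs (20.6 and 34.3 CPM) and a log2 ratio of -0.68 (-1.80 to 0.18). Each of these 3 intervals included 0. In unlabelled barcodes, a different mixture of cells described further on, Hoxb4 stood at -0.99 (-1.57 to -0.43), Hoxb3 at -1.13 (-1.82 to -0.48) and Hoxa3 at -1.10 (-1.68 to -0.55). Inside marker classes of these barcodes the direction varied, while in barcodes of no marker class Hoxa3 stayed lower, at -1.60 (-2.64 to -0.51). With adipocyte markers Hoxb4, Hoxb3 and Hoxa3 stood at 0.54, 0.91 and 0.61, and with endothelial markers at 0.44, -0.19 and -0.34, all with intervals that included 0. With fibroblast and progenitor markers the Hoxb3 ratio lay above 0, at 1.64 (0.03 to 3.25), on 8 UMIs in each library. In labelled nuclei, with equal weight per label the Hoxa3 ratio was -3.13, and that of Hoxa5, described next, was 0.99.

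Hoxa5, which patterns the neck and upper thorax and the lung, had 11 thymic and 46 epigonadal UMIs (20.6 and 21.3 CPM) in labelled nuclei and a log2 ratio of 0.00 (-1.15 to 0.92). Hoxd8 had 12 and 52 UMIs (22.4 and 24.1 CPM) and a log2 ratio of -0.06 (-1.14 to 0.82). Hoxd4 had 11 and 69 UMIs and a log2 ratio of -0.58 (-1.70 to 0.29). Hoxd3 had 7 and 46 UMIs, at -0.62 (-2.10 to 0.45), and Hoxb5 9 and 60 UMIs, at -0.66 (-1.92 to 0.29). Each of these 5 intervals in labelled nuclei also included 0, and smaller differences were not detectable at this depth. In unlabelled barcodes the same 5 intervals lay below 0, at -0.85 for Hoxa5, -2.45 for Hoxd8, -2.79 for Hoxd4, -3.38 for Hoxd3 and -2.35 for Hoxb5. Among unlabelled barcodes with endothelial markers they did so for Hoxd3 at -1.77 (-4.34 to -0.22), Hoxd8 at -1.95 (-4.51 to -0.43) and Hoxb5 at -1.32 (-2.82 to -0.21), and included 0 for Hoxa5 and Hoxd4. Gene bodies of Hoxa3 overlap those of Hoxa4, Hoxa5 and Hoxa6, as do those of Hoxb3 and Hoxb4, Hoxd3 and Hoxd4, and Hoxd10 and Hoxd11. Counts of these 10 genes are uncertain where the counting could split or share their reads.

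Several trunk genes were far lower in the thymic library. Hoxc8, which acts in the thorax and in the choice between white and brown fat in precursors, had 0 thymic UMIs and 135 epigonadal UMIs (62.6 CPM) and was at least 11.2-fold lower in the thymic library, with the 0 set at 3 UMIs. At the epigonadal level 33.5 thymic UMIs would have been counted. Hoxb6, another trunk gene, had 6 thymic UMIs (11.2 CPM) and 146 epigonadal UMIs (67.7 CPM) and a log2 ratio of -2.48 (-4.06 to -1.44). Hoxc8 lies at chr15:102990539-102994275 and Hoxb6 at chr11:96292814-96301569 (GRCm38.p6, whole genes).

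Other genes of paralogs 5 to 8 were lower as well. Hoxb8 had 1 thymic and 42 epigonadal UMIs and a log2 ratio of -2.81 (-8.72 to -0.82), and Hoxc5 had 1 and 40 UMIs, at -2.74 (-8.65 to -0.75). Hoxa7 had 6 and 65 UMIs, at -1.32 (-2.92 to -0.23). With the thymic 0 set at 3 UMIs, Hoxc6 (0 and 51 UMIs) was 4.21-fold lower and Hoxb7 (0 and 17) 1.40-fold lower. The upper end of the Hoxc6 interval was a log2 ratio of -1.72. Hoxa5, Hoxd8 and Hoxb5 were the members of these groups, among those with at least 10 UMIs, whose intervals in labelled nuclei included 0.

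Back genes had few UMIs in labelled nuclei of either library. Hoxc9, which sets thoracic motor neuron identity, had 0 thymic and 35 epigonadal UMIs. It was 2.89-fold lower with the 0 set at 3 UMIs, with an upper interval end of -1.16. By the same limit Hoxc10, a lumbar gene with 0 and 20 UMIs, was 1.65-fold lower, with an upper interval end of -0.29. Hoxb9, with 0 and 19 UMIs, was 1.57-fold lower by that limit. Hoxa9 had 0 and 13 UMIs and Hoxa10 0 and 10, and neither difference was detectable at this depth. Hoxd9 had 2 and 16 UMIs and a log2 ratio of -0.71 (-4.15 to 1.10). The 10 genes at 0 UMIs in labelled nuclei of both libraries were Hoxb1 and Hoxd1, which act at the front, and Hoxa11, Hoxa13, Hoxb13, Hoxc11, Hoxc12, Hoxc13, Hoxd12 and Hoxd13, which act at the tail, distal limb or urogenital end. In unlabelled barcodes Hoxa13 had 1 thymic and Hoxb13 1 epigonadal UMI.

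**Figure D2:**
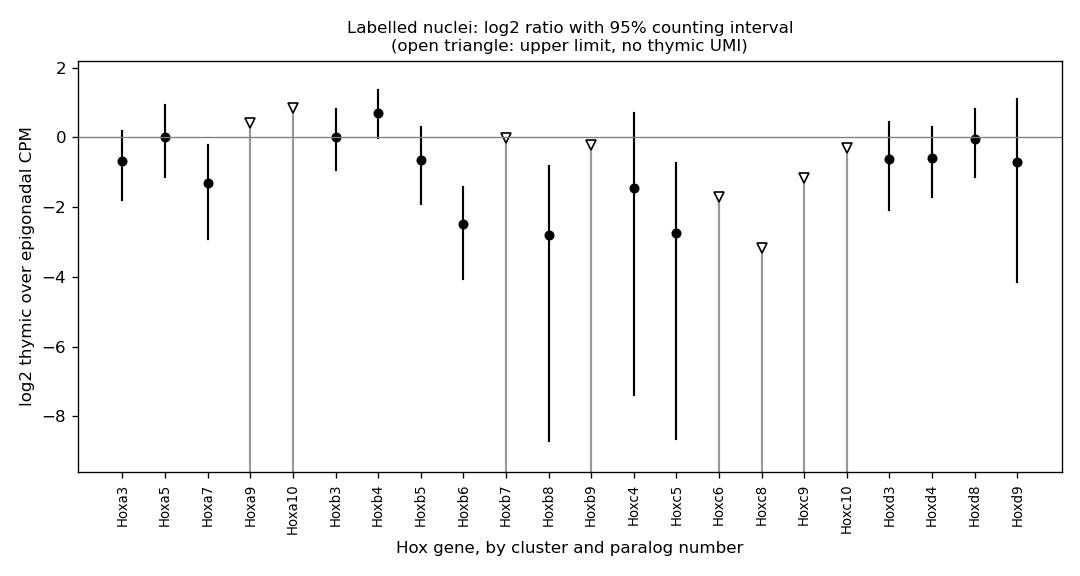
Log2 ratio of CPM, thymic over epigonadal, for the 22 Hox genes with at least 10 UMIs in labelled nuclei, ordered by cluster and paralog number. Points are ratios with 95% counting intervals, and open triangles are the upper ends of those intervals where the thymic count was 0. Hoxb4 sits highest at 0.71, and the limit for Hoxc8 is the lowest.

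The labels differed in which clusters they used, and this was clearest in the epigonadal library. HoxC made up 70.0% (63.8 to 75.7) of the 243 Hox UMIs of epigonadal Ad IIc, 40.5% of the 121 of Ad I and 11.3% of the 682 of Ad IIa. HoxB made up 11.1%, 20.7% and 47.7% of the same sums. The HoxC level was 329 CPM (282 to 383) in epigonadal Ad IIc, 237 CPM in Ad Ia, 125 CPM in Ad Ib, 62.2 CPM (49.1 to 77.8) in Ad IIa and 7.11 CPM in Ad IIb, which had 1 UMI. The intervals overlapped between neighbours in this order except Ad IIa and Ad IIb. HoxB was higher in Ad IIa and Ad IIb than in the labels with most HoxC, at 277 CPM in Ad IIb, 263 CPM in Ad IIa, 111 CPM in Ad Ia, 74.8 CPM in Ad Ib and 52.3 CPM in Ad IIc. The adipocyte markers had the same order over the 5 labels as HoxC, from 27549 CPM in Ad IIc through 7974, 7110 and 5587 CPM to 2629 CPM in Ad IIb. The endothelial markers were at 8668 CPM in Ad IIb, 6484 CPM in Ad IIa, 1580 CPM in Ad Ib, 585 CPM in Ad Ia and 409 CPM in Ad IIc. The part of these markers in the Hox levels was not tested.

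Hoxc8 and Hoxb6 differed between the large labels Ad IIc and Ad IIa in opposite directions. Epigonadal Hoxc8 stood at 153 CPM (79 UMIs) in Ad IIc, 83.6 CPM (12 UMIs) in Ad Ia, 49.9 CPM (6 UMIs) in Ad Ib, 30.7 CPM (38 UMIs) in Ad IIa and 0 UMIs in Ad IIb. Epigonadal Hoxb6 stood at 107 CPM (15 UMIs) in Ad IIb, 97.0 CPM (120 UMIs) in Ad IIa, 41.8 CPM (6 UMIs) in Ad Ia, 8.32 CPM (1 UMI) in Ad Ib and 7.75 CPM (4 UMIs) in Ad IIc. The Poisson intervals of Ad IIc and Ad IIa did not overlap for Hoxc8 (121 to 191 and 21.7 to 42.2 CPM) or Hoxb6 (2.11 to 19.8 and 80.4 to 116 CPM). Those of Ad Ia and Ad Ib overlapped for both genes, and so did those of Ad IIa and Ad IIb for Hoxb6. In the thymic library Hoxc8 was at 0 in all 5 labels, and Hoxb6 had 4 UMIs in Ad IIa and 1 each in Ad Ib and Ad IIb.

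Within Ad IIa, the label with the most thymic nuclei (231, against 590 epigonadal), HoxC again lay furthest below the epigonadal level. HoxC had 1 thymic UMI (2.49 CPM) and 77 epigonadal UMIs (62.2 CPM) and a log2 ratio of -4.07 (-9.97 to -2.12). HoxA stood at -0.72 (-1.41 to -0.13), HoxB at -1.22 (-1.71 to -0.78) and HoxD at -0.74 (-1.40 to -0.17). By paralog group the ratios were -0.37 (-0.81 to 0.03) for 1 to 4, -1.74 (-2.28 to -1.27) for 5 to 8 and -2.77 (-6.16 to -1.15) for 9 to 13. Of 17 members with at least 10 UMIs, 9 were lower by a log2 ratio of at least 1 where 16.2% of genes were, and 0 were higher where 5.44% were. With the 5 genes at 0 thymic UMIs set at their limit, 5 were lower by that much, and with 5 UMIs added to each sum 3 were. All genes were not recomputed at these settings, so the 16.2% is no matching share for them. Hoxb6 had 4 thymic and 120 epigonadal UMIs and a log2 ratio of -3.12 (-5.18 to -1.89).

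Within Ad I, the label with the highest adipocyte marker level in the thymic library, the 84 thymic nuclei held only 7 Hox UMIs, against 121 in 258 epigonadal nuclei. The log2 ratio of all Hox RNA was -1.68 (-3.12 to -0.69). HoxC had 1 and 49 UMIs and a log2 ratio of -2.71 (-8.61 to -0.73), where 9.70 thymic UMIs would have been counted at the epigonadal level. HoxA, with 1 and 36 UMIs, stood at -2.27 (-8.18 to -0.26), so HoxC was not set apart from HoxA in this label. HoxB, with 5 and 25 UMIs, stood at 0.12 (-1.73 to 1.43). HoxD had 0 and 11 UMIs, with an interval that included 0. The 3 members with at least 10 UMIs, Hoxa3, Hoxc5 and Hoxc8, all had 0 thymic UMIs. With 0.5 UMI added to each sum they were lower by a log2 ratio of at least 1 where 17.0% of genes were, 0 were higher where 15.2% were, and at their limits 0 of the 3 passed that size. A difference of single genes in Ad I was therefore not detectable at this depth.

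In Ad IIc, with 34 thymic and 658 epigonadal nuclei, HoxB and HoxD did not follow the sum. HoxB had 6 thymic and 27 epigonadal UMIs (111 and 52.3 CPM) and a log2 ratio of 1.17 (-0.49 to 2.39), and HoxD had 4 and 13 UMIs (73.7 and 25.2 CPM), at 1.66 (-0.52 to 3.24). Both intervals included 0, and TMM scaling, which corrects for library composition, lowers each ratio in this label by 0.56. Hoxb3 had 2 thymic and 0 epigonadal UMIs. HoxC had 0 and 170 UMIs and was 5.96-fold lower with the 0 set at 3 UMIs (upper interval end -2.26). HoxA stood at -0.49 (-3.90 to 1.17). In Ad IIb, with 16 thymic nuclei, HoxA stood at 0.80 (-1.39 to 2.38) and HoxB at -0.75 (-2.85 to 0.57).

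In barcodes without a label, HoxC was again the cluster furthest apart, with more counts behind it, and all 4 clusters were lower. HoxC had 11 thymic UMIs (2.39 CPM) in 22235 barcodes and 577 epigonadal UMIs (153 CPM) in 3479 and a log2 ratio of -5.94 (-7.01 to -5.15). HoxD stood at -3.10, HoxB at -2.09 and HoxA at -1.53 (-1.84 to -1.23). Hoxc8 had 0 and 273 UMIs, 110.9-fold lower with the 0 set at 3 UMIs (upper interval end -6.48). Of 25 members with at least 10 UMIs, 21 were lower in the thymic library by a log2 ratio of at least 1 where 22.4% of genes were, and 0 were higher where 11.1% were. T cell markers stood at 4052 CPM in the thymic and 249 CPM in the epigonadal unlabelled barcodes, so the sums compare different cell mixtures.

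Unlabelled barcodes were therefore also classed by marker genes, at least 2 distinct markers of 1 list and fewer of each other list. Barcodes with adipocyte markers had 1 HoxC UMI (5.69 CPM) in 569 thymic and 358 UMIs (217 CPM) in 1981 epigonadal barcodes. Barcodes with endothelial markers had 1 (2.68 CPM) and 64 (90.8 CPM), and those with fibroblast and progenitor markers 1 (10.4 CPM) and 82 (274 CPM). The upper limits of the thymic classes, 31.7, 14.9 and 58.0 CPM, lay below the lower limits of the matching epigonadal classes, 195, 69.9 and 218 CPM. Of the 11 thymic HoxC UMIs, 8 lay in barcodes of no marker class. Median UMIs per barcode were 398 thymic and 727 epigonadal in the adipocyte class, 737 and 1754.5 in the endothelial class, and 1011 and 1042 in the fibroblast class. Only the medians were close in the fibroblast class, where 91 thymic barcodes held 96021 and 219 epigonadal ones 298979 nuclear-encoded UMIs. Among all unlabelled barcodes with at least 1000 UMIs the HoxC log2 ratio was -6.46 (-9.83 to -4.92).

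HoxA and HoxB differed less within the same classes. HoxA stood at 51.2 and 81.9 CPM with adipocyte markers, 85.8 and 116 CPM with endothelial markers, and 93.7 and 114 CPM with fibroblast markers, thymic before epigonadal, and the intervals of each pair overlapped. HoxB stood at 56.9 and 78.3 CPM, 99.2 and 234 CPM, and 104 and 87.0 CPM. Only with endothelial markers did the HoxB intervals not overlap (69.9 to 137 and 200 to 273 CPM). HoxD had 16 thymic UMIs (42.9 CPM) with endothelial markers and 0 with adipocyte or fibroblast markers, against 129, 55.2 and 30.1 CPM in the epigonadal library. At the epigonadal level 9.70 thymic UMIs would have been counted with adipocyte and 2.89 with fibroblast markers. The upper interval ends were -1.37 and 0.66, so the 0 with fibroblast markers was within counting error.

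Barcodes with T cell markers served as a comparison class for free RNA, though T cells may hold some Hox RNA of their own. The 2094 thymic ones had 0 HoxC UMIs, which allows up to 2.29 CPM at 3 counts, and 4.58 CPM of HoxB, 11.4 CPM of HoxA and 1.53 CPM of HoxD. Thymic HoxC in labelled nuclei (3.74 CPM, interval 0.45 to 13.5) was not distinguishable from this level. The thymic HoxA, HoxB and HoxD levels in labelled nuclei lay above it, with lower limits of 42.5, 85.6 and 40.9 CPM. In the epigonadal library 98 barcodes with T cell markers had 27.6 CPM of HoxC (3 UMIs). T cell marker and hemoglobin genes together stood in labelled nuclei at 31.2% of their level in unlabelled barcodes in the thymic library and at 2.63% in the epigonadal one. With these joint shares of the unlabelled profile subtracted as free RNA, HoxC stood at 2.99 and 134 CPM. T cell markers alone stood at 163 CPM in labelled and 4052 CPM in unlabelled thymic barcodes, and at 9.73 and 249 CPM in epigonadal ones. The 31.2% thus rests mostly on the hemoglobin genes and may not measure free RNA.

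**Figure D3:**
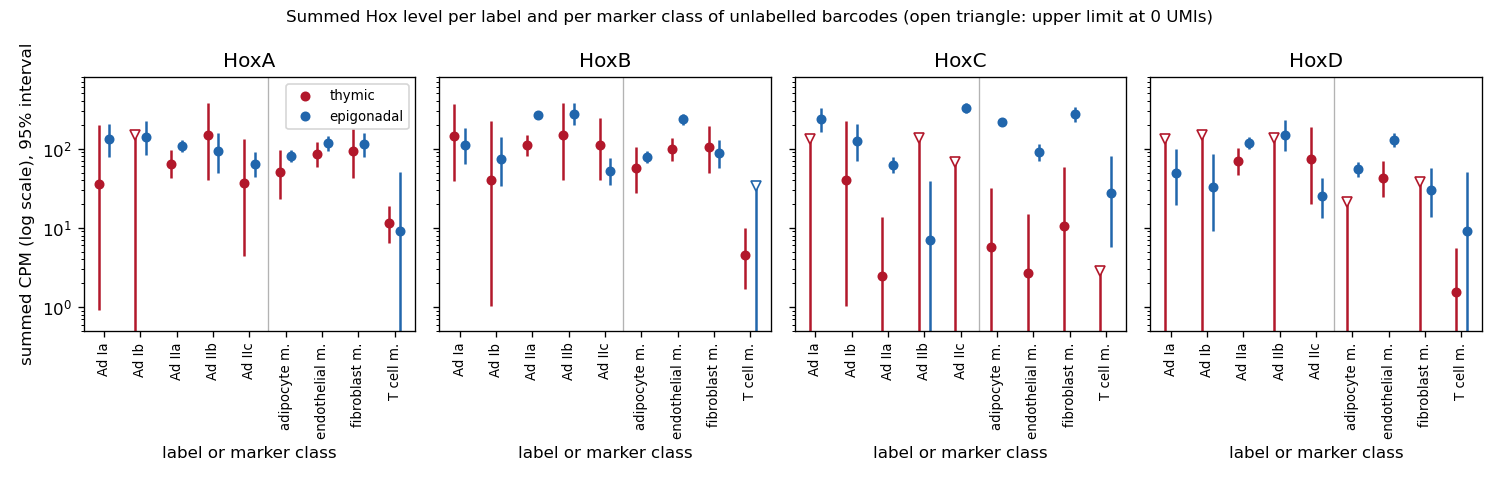
Summed CPM of each cluster (log scale) in the 5 labels and in unlabelled barcodes classed by adipocyte, endothelial, fibroblast and progenitor or T cell markers (right of the grey line), thymic in red and epigonadal in blue. Bars are exact Poisson 95% intervals, cut at the axis, and open triangles are upper limits at 0 UMIs. HoxC separates the libraries in the classes with adipocyte, endothelial and fibroblast markers.

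Per nucleus, 28.5% (23.9 to 33.4) of labelled thymic and 41.8% (39.4 to 44.3) of labelled epigonadal nuclei had a Hox UMI. Thinned to 500 UMIs each, which left out 44 thymic and 0 epigonadal nuclei, the shares were 12.8% (9.3 to 16.9) and 20.4% (18.4 to 22.5). HoxC was seen in 2 of 365 and 242 of 1564 nuclei, or after thinning in 0.31% (0.01 to 1.72) and 8.25% (6.93 to 9.72). Pooled over labels, HoxB was seen after thinning in 6.85% and 6.39%, HoxA in 2.80% and 3.58%, and HoxD in 3.12% and 3.39% of nuclei, with overlapping intervals in each pair. These shares come from 1 random draw of UMIs per group, made separately for each label, so counts of labels need not add up to the pooled count. The expected share over all draws was 5.03% and 6.25% for HoxB. The pooled groups also differ in their labels, since Ad IIa made up 231 of 365 thymic nuclei and Ad IIc 658 of 1564 epigonadal ones. In Ad IIa alone, HoxB was seen after thinning in 4.803% (2.42 to 8.43) of thymic and 11.7% (9.21 to 14.6) of epigonadal nuclei, expected shares 5.07% and 11.04%, and these intervals did not overlap. Among barcodes with T cell markers in the thymic library (median 635 UMIs) the unthinned share with a Hox UMI was 1.05%, against a median of 1479 UMIs in labelled thymic nuclei. Among those in the epigonadal library (98 barcodes, median 1137 UMIs) it was 5.102% (1.68 to 11.5), and 3.06% (0.64 to 8.69) had a HoxC UMI, against a median of 966 UMIs in labelled epigonadal nuclei.

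Summed over labelled nuclei, RNA of most cofactor and chromatin genes that act with or on Hox genes did not differ by a log2 ratio of 1. For these lists, the shares over all genes with at least 10 UMIs in labelled nuclei are 8.12% higher and 20.2% lower by that much, with a median of 0.02. Of 9 TALE cofactors, the Pbx, Meis and Pknox genes, 6 had at least 10 UMIs, 1 was higher and 0 lower by a log2 ratio of at least 1 (8.12% and 20.2% of all genes), and the median was 0.71. In unlabelled barcodes the TALE median had the opposite sign, at -0.58, with 3 of 9 lower and 2 higher (22.4% and 11.1% of all genes) and sums of 329 and 557 CPM. In labelled nuclei Pknox1 stood at 1.22 (0.53 to 1.87) and Pbx3 at 0.90 (0.56 to 1.23), while Pbx2 stood at -0.996 (-2.17 to -0.11) and Meis2 at -0.19 (-1.01 to 0.51). Of 26 Polycomb genes 23 had enough UMIs, 1 was lower and 0 higher, with a median of 0.20. Phc3, of the complex that binds silenced chromatin, stood at 0.95 (0.56 to 1.33) and the accessory subunit Mtf2 at 0.94 (0.46 to 1.38). The histone binding subunits Rbbp7 and Rbbp4 stood at -1.08 (-2.04 to -0.32) and -0.42 (-0.93 to 0.03).

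Of 13 Trithorax genes all 13 had enough UMIs, 0 were higher or lower by that much, and the median was 0.43. The H3K27 demethylase gene Kdm6a stood at 0.92 (0.58 to 1.25) and Kmt2a, a methyltransferase long known for holding Hox genes active, at 0.65 (0.35 to 0.94). Dpy30 and Rbbp5, core subunits of these methyltransferase complexes, stood at -0.98 (-2.23 to -0.05) and -0.51 (-1.70 to 0.40). Among 12 genes of retinoic acid and Cdx input, 4 had enough UMIs, 2 were lower and 0 higher (20.2% and 8.12% of all genes), and the median was -0.47, too few genes to describe the list. Aldh1a1, which makes retinoic acid, had 3 thymic and 148 epigonadal UMIs and a log2 ratio of -3.39 (-5.91 to -2.04). The receptor gene Rara stood at -1.16 (-2.97 to 0.04) and Rarg at 0.22 (-0.51 to 0.85). These lists were chosen with earlier results known, and their medians are descriptions. In unlabelled barcodes the medians were 0.32 for Polycomb, with 5 of 26 genes higher and 0 lower (11.1% and 22.4% of all genes), 0.51 for Trithorax and -1.19 for the input genes. Ad IIc differed from the sum, with 9 of 17 Polycomb genes higher and 2 lower, 5 of 8 Trithorax genes higher and 1 lower, and 2 of 4 TALE genes each way, where 32.7% of all genes were higher and 32.0% lower. The medians there were 1.02, 1.71 and 0.41, against 0.08 over all genes, before the TMM shift of that label.

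Genes beside or opposite the clusters were given from a further list, of which 12 of 16 were in the files and 5 had enough UMIs, 1 higher and 0 lower (8.12% and 20.2% of all genes), with a median of 0.68. Hoxb3os, transcribed opposite Hoxb3, had 23 and 45 UMIs and a log2 ratio of 1.06 (0.25 to 1.80). Skap2, an adaptor gene flanking HoxA, stood at 0.91 (0.63 to 1.18) and Mtx2, a mitochondrial outer membrane gene flanking HoxD, at -0.13 (-0.79 to 0.44). In unlabelled barcodes the median of this list was -0.68 over 7 genes, although its sums were 1658 and 570.4 CPM. Hotairm1, a transcript from the front end of HoxA, stood at 0.18 (-0.92 to 1.08) in labelled nuclei. No source used here gives the strand setting of the counting, so reads of Hoxb3 and Hoxb3os may not be told apart.

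Chromatin was read in the 6-month thymic nuclei alone, so it shows how open each cluster was in the thymus, without an epigonadal partner. The authors labelled the 317 nuclei used here as thyAD I (146 nuclei, 1646902 fragments), thyAD II (140 nuclei, 2189613 fragments) and Immune (31 nuclei, 561387 fragments). Over the whole HoxA cluster (chr6:52162417-52260880, with 2 kb on either side) there were 2.52 fragments per 1000000 fragments of the label (FPM) and per kb in thyAD I, 2.43 in thyAD II and 2.10 in Immune nuclei. HoxB (chr11:96194316-96368254) had 1.20, 1.35 and 1.03. HoxC (chr15:102921131-103036856) had 0.63, 0.95 and 0.45, and HoxD (chr2:74668225-74765142) 0.75, 1.35 and 0.46. The median over 49939 gene windows was 0.27, 0.28 and 0.35, so HoxA was the most open cluster per kb in all 3 classes, and HoxC and HoxD in Immune nuclei were the nearest to the median.

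Summed per label, thyAD II nuclei were more open than thyAD I over HoxD and HoxC. Counted over gene bodies and 2 kb around them, each base once, HoxD held 280 thyAD II fragments (128 FPM) and 121 thyAD I fragments (73.5 FPM) and a log2 ratio of 0.80 (0.49 to 1.12). HoxC had 209 and 105 fragments (95.5 and 63.8 FPM) and a log2 ratio of 0.58 (0.24 to 0.93). HoxB stood at 0.17 (-0.04 to 0.38) and HoxA at -0.07 (-0.26 to 0.11). Some of these calls depend on the window. Over gene bodies alone HoxB stood at 0.30 (0.06 to 0.55), above 0, and within 1 kb of gene starts HoxA stood at -0.32 (-0.63 to -0.0055), below 0. Within 1 kb of gene starts the HoxC interval included 0, at 0.52 (-0.06 to 1.14), and HoxD stood at 0.96 (0.44 to 1.53). Over Immune nuclei, which had 23 HoxD and 22 HoxC fragments, thyAD II stood at 1.61 (1.03 to 2.32) for HoxD and 1.26 (0.65 to 1.99) for HoxC, and thyAD I at 0.82 (0.19 to 1.55) and 0.68 (0.03 to 1.44). For HoxC over Immune nuclei, the thyAD II interval stayed above 0 over gene bodies alone (0.51 to 2.05) and within 1 kb of gene starts (0.41 to 3.10). That of thyAD I then included 0, at 0.48 (-0.27 to 1.37) and 0.98 (-0.19 to 2.61). For HoxD the thyAD I interval included 0 within 1 kb of gene starts, at 0.57 (-0.43 to 1.86). HoxC RNA in the 4-month thymic library was 3.74 CPM in labelled nuclei. The RNA and the chromatin come from different animals, ages and sexes.

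The 2 joint clusters inside each label did not share this evenly. In thyAD I, HoxD had 96 fragments (85.4 FPM) in joint cluster 1 and 25 (47.8 FPM) in joint cluster 3 and a log2 ratio of 3 over 1 of -0.81 (-1.53 to -0.19). In thyAD II, joint cluster 4 stood below joint cluster 0 for HoxD, at -0.42 (-0.80 to -0.06). For HoxC the corresponding ratios were 0.53 (-0.08 to 1.11) and 0.18 (-0.24 to 0.58), and for HoxA 0.05 and -0.12, all with intervals that included 0. Within 1 kb of gene starts the HoxC ratio of 3 over 1 lay above 0, at 1.03 (0.01 to 2.04), and the HoxD ratio of 4 over 0 included 0, at -0.30 (-0.93 to 0.28). The HoxD level of joint cluster 3 over the whole cluster (0.49 FPM per kb) was close to that of Immune nuclei (0.46). Across the labels, over gene bodies and 2 kb around them, the HoxD intervals of joint clusters 1 and 4 overlapped (69.2 to 104 and 85.4 to 130 FPM). For HoxC the interval of joint cluster 3 (57.9 to 109 FPM) overlapped those of joint clusters 0 (75.3 to 109) and 4 (82.3 to 126).

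By gene, 32 members had at least 20 fragments over both labels. Of these, 9 were higher in thyAD II by a log2 ratio of at least 0.5 where 12.1% of 23425 genes were, and 5 were lower by as much where 8.26% were. The interval lay above 0 for 5 members, Hoxd3, Hoxd9, Hoxc5, Hoxd1 and Hoxc4, and below 0 for 1, Hoxa4. The share of all genes with such intervals was not computed. Hoxd3 had 143 and 50 fragments and a log2 ratio of 1.10 (0.63 to 1.60), and Hoxd9 had 33 and 10, at 1.26 (0.26 to 2.50). Hoxc5 had 45 and 15, at 1.14 (0.30 to 2.12), Hoxd1 27 and 9, at 1.12 (0.04 to 2.45), and Hoxc4 62 and 28, at 0.72 (0.07 to 1.43). Hoxa4 had 78 and 95, at -0.69 (-1.15 to -0.25). Windows of neighbouring members overlap, so these genes are not independent of one another.

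Fragments in the 250-base promoters printed above are given as counts at single sites. The Hoxa5 promoter held 24 fragments in thyAD I, 28 in thyAD II and 4 in Immune nuclei (14.6, 12.8 and 7.13 FPM). The Hoxd3 promoter held 2, 16 and 0. The Hoxd13 promoter, the richest of the 3 in CG, held 0 in each class. The Hoxd13 gene body with 2 kb around it held 9 thyAD I and 13 thyAD II fragments. Within 1 kb of the start, the trunk gene Hoxc8 had 6, 5 and 1 fragments and Hoxb6 0, 4 and 0, while Hoxa5 had 55, 73 and 7. Over the gene body and 2 kb around it, Hoxb6 held 53 thyAD I and 68 thyAD II fragments, Hoxa5 67 and 104, and Hoxc8 8 and 12. The low count of Hoxb6 near its start therefore does not describe the whole gene. The median over 38 starts was 3.64, 2.28 and 1.78 FPM, against 1.82, 1.83 and 1.78 over 27025 gene starts. Hox starts were the ends of whole genes and the others came from the promoters, so the sets do not match fully. These medians rest on few fragments.

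**Figure D4:**
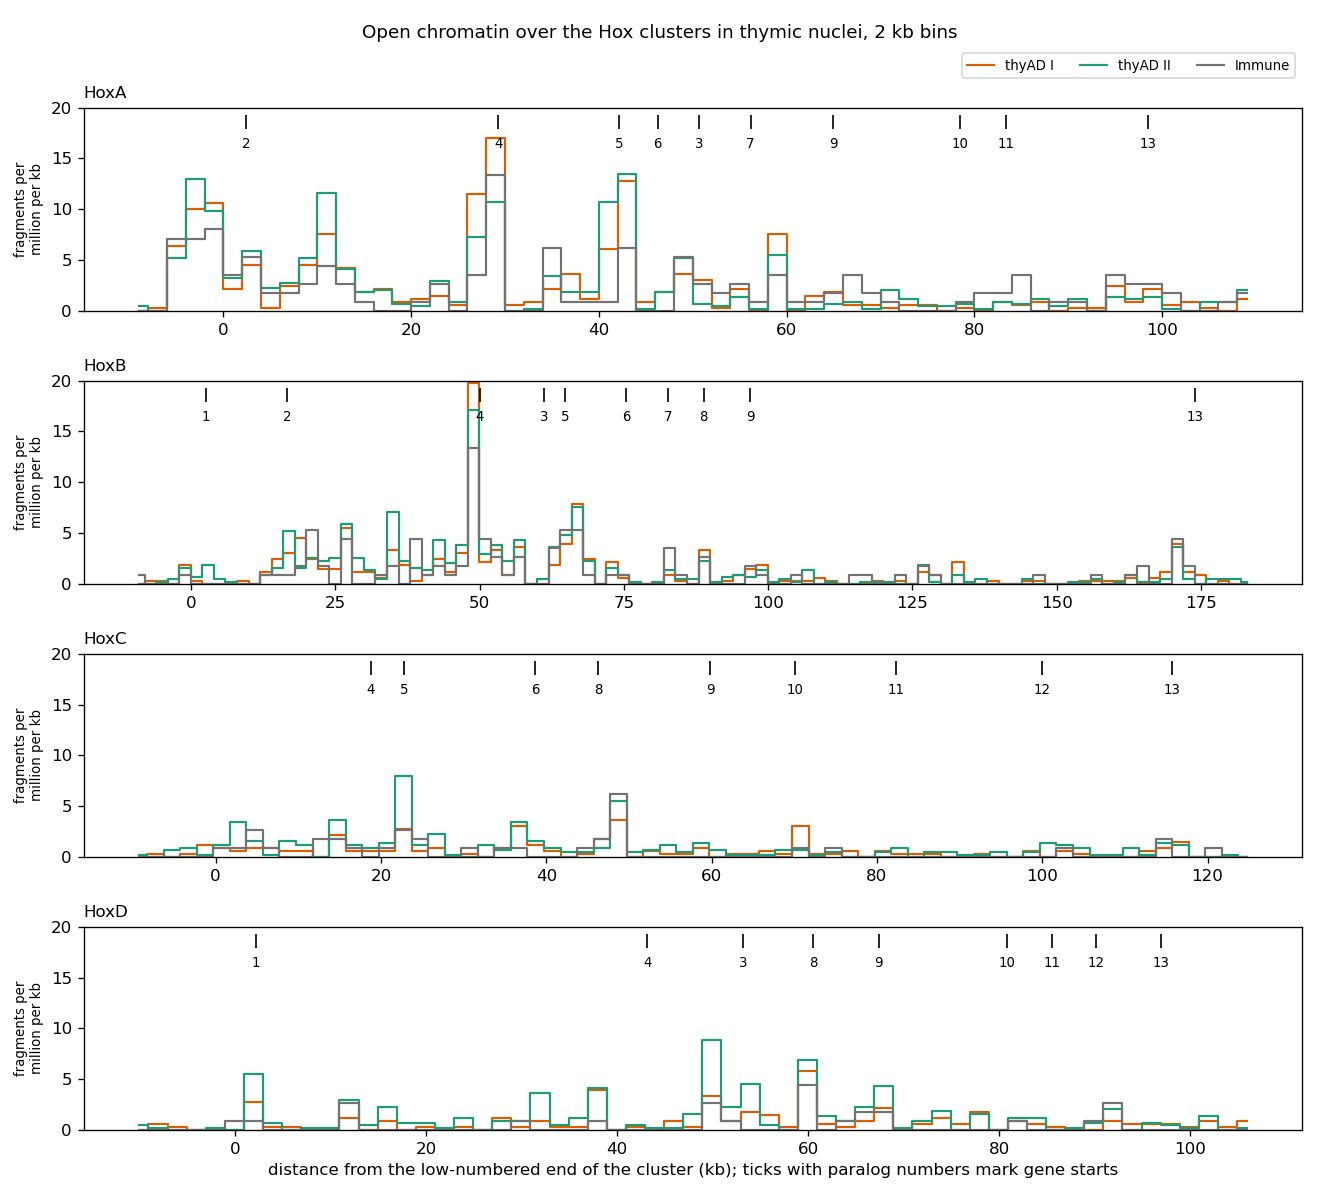
Fragments as FPM per kb in 2 kb bins along each cluster in 6-month thymic nuclei labelled thyAD I (orange), thyAD II (green) and Immune (grey), against distance in kb from the low-numbered end. Ticks with paralog numbers mark gene starts, and all panels share the same vertical scale. The tall bins lie in the low-numbered parts of HoxA and HoxB, and thyAD II stands above thyAD I in several HoxD bins.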

How the data were processed

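The deposited RNA matrices hold unnormalized UMI counts, written by cellranger 7.2.0 per the file headers. The submitters' processing notes name Cell Ranger ARC 2.0.2, Seurat 5.1.0 and mm10. How introns and strand were treated is not stated in these sources. The authors deposited a label and the percent of mitochondrial UMIs per nucleus (highest 20.0). Matrix UMIs differed from their deposited totals by at most 33 per nucleus. The copy of the 6-month table used here ended inside a row, leaving 317 complete rows. The multiome RNA was not analysed here.

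For each label of a library, UMIs were added up and scaled to nuclear-encoded UMIs. Ratios had 0.5 UMI added to each sum and exact binomial intervals. Levels had exact Poisson and shares Clopper-Pearson intervals. With 1 library per group no p-value was made. The calculation was tested on simulated data, with changes placed only in genes with more UMIs than any Hox gene had in labelled nuclei. Recovery of changes at the low counts of Hox genes was not tested. Fragments overlapping a window were counted per 1000000 fragments of a label (101060606 in the file, 4397902 in labelled nuclei). No doublet caller was run. Gene positions and promoters were taken from RefSeq, GRCm38.p6, and 19 of the 22 matched promoter starts lay within 1 kb of the gene start used. All members could be named; from other lists, the 2 highest and 2 lowest ratios among genes with at least 50 UMIs. The members and lists were chosen with earlier results of these data known. 1 gene found by the rule is not reported here. Tools were Python 3.11.15, numpy 2.4.6, scipy 1.17.1, pandas 2.3.3, edgeR 4.0.16 and DESeq2 1.42.0, the last 2 for scaling only.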

Additional observations from a re-analysis of the deposited data

How the results depend on the processing

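No paired analysis was possible because each group was 1 library. Leaving out Ad IIc, the windows of 1 kb around gene starts and the expected thinned shares were chosen after seeing the data. Of 163 recomputed cluster and paralog ratios, shares and counts of genes, 139 stayed within their 95% counting interval (counts of genes, within 1.5 times the reported count) and 0 of the ratios whose interval excluded 0 changed sign. Of the others, paralogs 1 to 4 went to 0.077 with equal weight per nucleus and paralogs 9 to 13 chromatin to -0.030 within 1 kb of gene starts, and 21 values of single genes or of label sums changed sign. With 5 UMIs added to each sum, the count of Hox genes lower in the thymic library was 3 of 22 in all labelled nuclei and 3 of 17 in Ad IIa. Equal added counts move ratios of low counts upwards, since the thymic library holds fewer UMIs. No matching share over all genes was computed. With equal weight per label the HoxD log2 ratio in labelled nuclei was -1.38. In 1 random thinning to 500 UMIs, the share of nuclei with a UMI in the thymic and epigonadal library was 12.8% and 20.4% for all Hox genes, 2.80% and 3.58% for HoxA, 6.85% and 6.39% for HoxB, and 3.12% and 3.39% for HoxD, and 8.25% for HoxC in the epigonadal library. Expected over all thinnings, they were 10.98% and 20.6%, 3.21% and 4.39%, 5.03% and 6.25%, 2.63% and 3.34%, and 8.27%. These shares fell because fewer UMIs were read. Within 1 kb of gene starts, the log2 ratio of thyAD II over thyAD I was -0.32 for HoxA and 0.083 for paralogs 1 to 4, and over gene bodies without flanks it was 0.35 for paralogs 9 to 13, and the cause was not tested. Among single genes and label sums, 277 of 283 values stayed in their interval, and the other 6 moved with equal label weights or 5 added UMIs. All 6-month nuclei had at least 3610 fragments, so the minimum of 3000 fragments removed 0. Its 7 ratios, counted among the 139, therefore equal the reported ones by construction. Scaling by TMM, by median of ratios or to fragments in gene windows adds 1 constant to all ratios of a group. For the cluster and paralog ratios among the 163 these constants were smaller than the counting error. Those ratios could not leave their intervals, so their place among the 139 shows little. TMM scaling moved ratios by -0.05 in all labelled nuclei, 0.11 in unlabelled barcodes, -0.56 in Ad IIc, -0.19 in Ad Ib and -0.10 in Ad IIb. Small thymic counts, 7 Hox UMIs in Ad I and 2 in HoxC, limit the precision.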
